A study of Homo sapiens with 16 samples.

Results

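Class I antigen presentation was followed through 9 genes, HLA-B, HLA-C, HLA-E, HLA-F, B2M, TAP1, TAP2, PSMB8 and PSMB9, taken by gene name from the array annotation. They have 15 of the 58201 non-control probes and are 9 of 42665 gene names, and all 15 probes were among the 34600 tested. The cells were 16HBE, a human bronchial epithelial line immortalised with SV40 large T antigen, either parental with wild-type MET (16HBE-WT) or edited by CRISPR/Cas9 so that MET exon 14 is skipped (16HBE-ex14, clone F). MET is the receptor of hepatocyte growth factor (HGF), and exon 14 encodes the juxtamembrane stretch through which the activated receptor is marked for degradation. Both lines were starved of serum for 2 h, with HGF then added at 20 ng/mL for 24 h or left out, giving for each genotype an untreated condition and one with HGF (16HBE-WT+HGF, 16HBE-ex14+HGF), 4 conditions of 4 one-colour arrays each. As 16HBE-ex14 is a single clone, a difference between the genotypes and a difference of that clone cannot be told apart.

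Class I molecules show fragments of the cell's own proteins to CD8 T cells. The proteasome cuts the proteins, and under interferon its catalytic subunits are exchanged for inducible ones, PSMB8, PSMB9 and PSMB10. The peptides are carried into the endoplasmic reticulum by the transporter TAP1/TAP2 and bound there by a heavy chain (HLA-B or HLA-C, or the less variable HLA-E and HLA-F) paired with beta-2-microglobulin, B2M. In epithelium these genes have a basal level that interferon gamma raises through IRF1 and the co-activator NLRC5.

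Heavy chain genes resemble each other, so the sequences of their probes are shown first. HLA-B probes 1 and 2 lie at chr6:31321663-31321722 and chr6:31321653-31321712 (hg19, the build of the array annotation), and the brighter HLA-C probe, probe 1, is placed at chr6:31321644-31321703, overlapping both. The 3 probes overlap, with a longest shared run of 41 bases between HLA-B probe 1 and HLA-C probe 1, and are therefore not independent readings. The 30 bases below, the same stretch in each probe, hold in capitals the base that sets HLA-B probe 2 apart. Counted from 1 at the 5′ end of HLA-B probe 2 it is T27G in both other probes. This base does not separate HLA-C probe 1 from HLA-B probe 1. As HLA-C probe 1 is placed among the HLA-B probes, its readings cannot be assigned to HLA-C alone.
HLA-B probe 1: agtcaattcctggaaGttgagagagcaaat
HLA-B probe 2: agtcaattcctggaaTttgagagagcaaat
HLA-C probe 1: agtcaattcctggaaGttgagagagcaaat

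HLA-C probe 2 is placed elsewhere, at chr6:31236617-31236676, and shares no run of 20 bases with any other probe of the array. The brighter HLA-E probe, probe 1, shares such a run with 9 probes of other names, on either strand, and is not printed.

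HLA-E probe 2 (chr6:30460729-30460788) and the probes of HLA-F, B2M, TAP2, PSMB8 and PSMB9 share no 20-base run with another probe, and the TAP1 probe shares one with a probe on the opposite strand, named PSMB8-AS1. Of the probes used below, 5 are printed whole, those of HLA-F, PSMB8 and PSMB9 and HLA-B probe 3. HLA-B probe 3, which the annotation leaves without a position, shares no run of 20 bases with probes 1 and 2. Both HLA-F probes read different parts of that gene (chr6:29693280-29693338 and chr6:29692114-29692173).
HLA-B probe 3: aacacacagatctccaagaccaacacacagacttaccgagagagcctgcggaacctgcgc
HLA-F probe 1: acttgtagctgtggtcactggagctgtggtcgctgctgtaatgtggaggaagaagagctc
HLA-F probe 2: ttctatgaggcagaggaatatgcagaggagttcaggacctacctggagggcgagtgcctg
PSMB8: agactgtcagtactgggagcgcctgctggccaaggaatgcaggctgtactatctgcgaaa
PSMB9: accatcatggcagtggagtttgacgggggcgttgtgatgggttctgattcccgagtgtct

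Promoter windows from 250 bases before to 50 after a start site were at hand for 8 of the 9 genes (RefSeq, GRCh38.p14), all but HLA-E. The core of interferon response elements, GAAA repeated after a gap of any 2 bases, was searched on both strands and was found in 5 of the 10 windows of these genes (TAP1 and PSMB8 have more than 1), belonging to HLA-F, B2M, TAP1, TAP2 and PSMB8. Of all 35116 promoter windows, 3.57% hold it. The motif CCAAT, the letters bound by NF-Y in class I promoters, was in 6 of the 10 windows and in 34.6% of all windows. Stretches of 4 of these genes are printed on the strand of the gene with the repeat in capitals, which reads TTTC where it lies on the other strand; TAP1 and PSMB9 are transcribed away from each other, from starts at chr6:32853704 and chr6:32854192, and the printed TAP1 stretch lies between them.
HLA-F chr6:29723248-29723327, plus strand: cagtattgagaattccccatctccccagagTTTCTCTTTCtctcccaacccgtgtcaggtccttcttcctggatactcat
TAP1 chr6:32853789-32853868, minus strand: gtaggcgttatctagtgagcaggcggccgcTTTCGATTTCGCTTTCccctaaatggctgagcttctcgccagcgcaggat
PSMB8 chr6:32844042-32844081, minus strand: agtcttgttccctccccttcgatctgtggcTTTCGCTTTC
B2M chr15:44711343-44711422, plus strand: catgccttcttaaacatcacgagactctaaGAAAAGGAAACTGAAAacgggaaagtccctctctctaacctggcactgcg

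The deposited values are spot intensities, given below as log2 levels relative to the 75th percentile of the same array, so that a level of 0 equals that percentile. Levels of different probes are not compared with each other. A difference is called lower or higher when limma's adjusted p-value (Benjamini-Hochberg over all tested probes of a contrast) is below 0.05, and the text says where it is also more than 1.5-fold. The 75th percentile ranged from 139.5 to 262.8 intensity units, 49% to 60.3% of probes were well above background on an array, and no member probe was saturated. Each slide of 8 arrays held 2 arrays of every condition, and some of these probes differ by slide, which is given where it matters. All 7 markers of airway epithelium were well above background on all 16 arrays, whereas 3 of 6 fibroblast markers (COL1A2, COL3A1 and DCN) and 1 of 3 endothelium markers (PECAM1) were well above background on too few arrays to be tested. Of 6 leukocyte markers 3 were tested. In extracts of whole cultures, fewer expressing cells and less RNA per cell cannot be told apart.

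In 16HBE-ex14 cells, HGF lowered the inducible proteasome subunits PSMB8 and PSMB9, the transporter gene TAP1 and the heavy chain gene HLA-F. All 15 probes had a negative difference, with a median of -0.38 against 0.06 over all tested probes. The adjusted p-value was below 0.05 for 5 probes of 4 genes, against a background of 1.49% of tested probes lower. With the fold limit 1 probe remained, HLA-F probe 2, against 0.936%. The 4 HGF arrays lay below all 4 untreated arrays for 7 of the 15 probes, where 4.37% of all tested probes did so. Of the epithelium markers CDH1, the adhesion molecule E-cadherin, was also lower with HGF (-0.58, adjusted p = 0.0358), the single one of 7 that passed, and no tested fibroblast, leukocyte or endothelium marker passed; the part of this in the member differences was not tested.

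**Figure D1:**
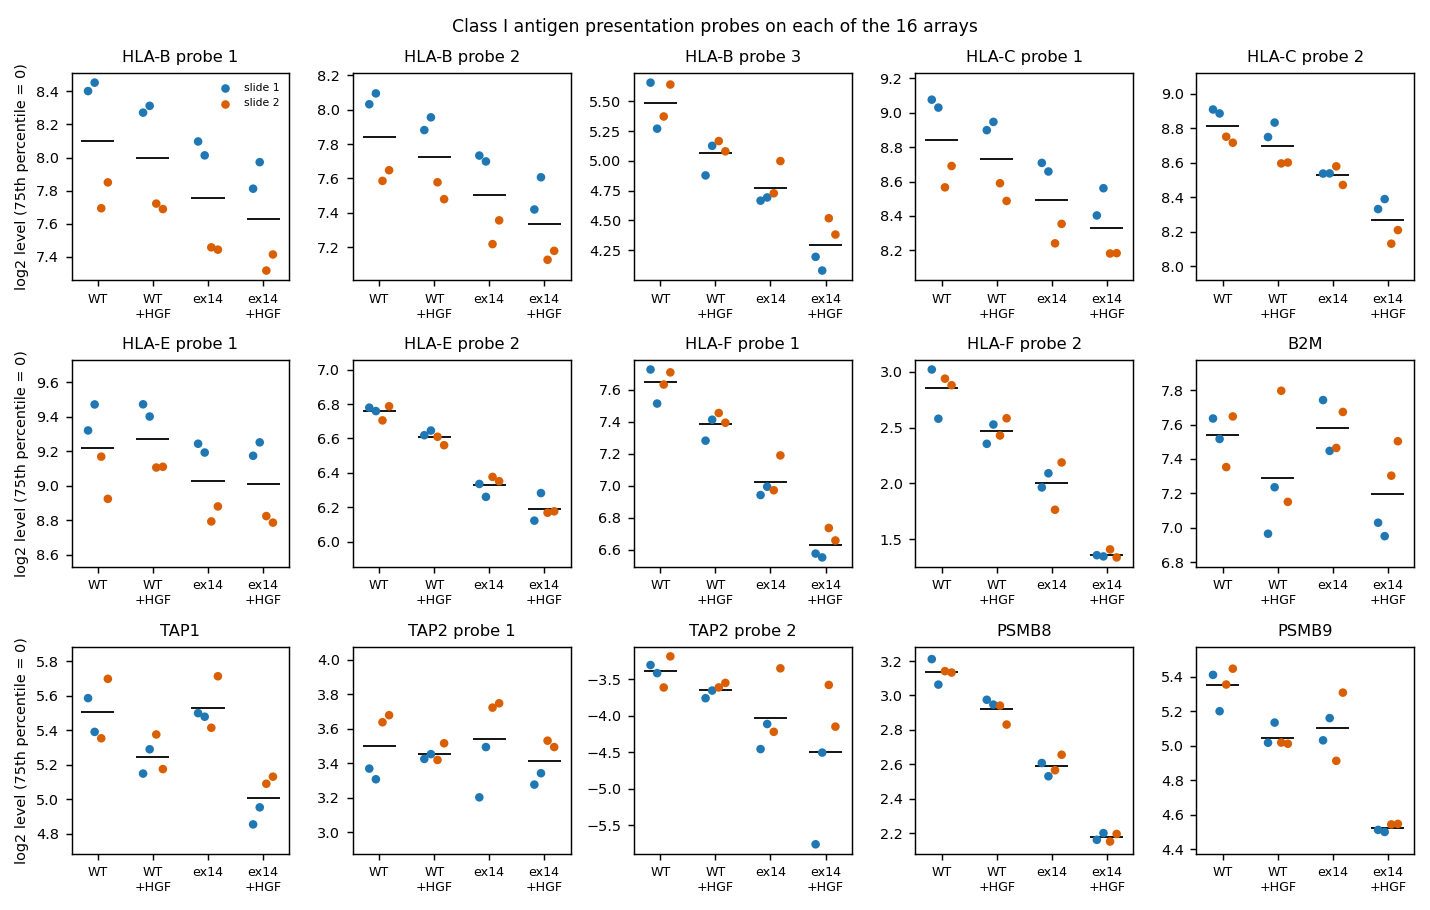
Log2 level (75th percentile of the array set to 0) of the 15 probes on each of the 16 arrays. Each point is an array, coloured by slide, each bar the mean of 4 arrays, and each panel has its own scale; PSMB8, HLA-F and HLA-E probe 2 step down from 16HBE-WT to 16HBE-ex14+HGF, whereas TAP1 starts at the same level in both genotypes.

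PSMB9, a subunit that replaces PSMB6 in the inducible proteasome, read 5.03, 5.16, 4.91 and 5.31 on the 16HBE-ex14 arrays and 4.51, 4.50, 4.54 and 4.55 with HGF. The HGF arrays were all lower and closer together (SD 0.0234 against 0.17, n = 4 each). The difference was -0.58 (SE 0.0917, 1.49-fold lower, adjusted p = 0.00371), with -0.59 on slide 1 and -0.57 on slide 2.

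PSMB8, which replaces PSMB5, read 2.61, 2.53, 2.57 and 2.66 without and 2.16, 2.20, 2.15 and 2.20 with HGF. No array of one condition came near the other. The difference was -0.41 (SE 0.0699, 1.33-fold lower, adjusted p = 0.00569).

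TAP1, one chain of the peptide transporter and the neighbour of PSMB9, read 5.50, 5.48, 5.41 and 5.71 without and 4.85, 4.95, 5.09 and 5.13 with HGF. The conditions did not overlap, and slide 2 was the higher one within the HGF arrays. TAP1 was lower with HGF, with a log2 difference of -0.52 (SE 0.105, 1.43-fold, adjusted p = 0.0156). TAP2, the other chain, did not pass at either probe: probe 1 differed by -0.13 (SE 0.126, adjusted p = 0.724), and probe 2, above background on 2 of 4 arrays in each of these conditions, by -0.46 (SE 0.349).

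HLA-F, a heavy chain gene of the non-classical kind, was lower at both probes. Probe 1 read 6.94, 6.99, 6.97 and 7.19 without and 6.58, 6.55, 6.74 and 6.66 with HGF, a difference of -0.39 (SE 0.0855, adjusted p = 0.0221). Probe 2 read 1.96, 2.09, 1.76 and 2.19 without and 1.36, 1.34, 1.41 and 1.34 with HGF, a difference of -0.64 (SE 0.111, 1.56-fold lower, adjusted p = 0.00636). Neither probe had overlapping arrays.

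The other heavy chain genes and B2M did not pass with HGF. HLA-B probe 3 read 4.67, 4.69, 4.73 and 5.00 without and 4.20, 4.08, 4.52 and 4.38 with HGF, a difference of -0.48 (SE 0.126, adjusted p = 0.0587) without overlap, and its adjusted p-value with slide as a block was 0.0237. HLA-C probe 2 differed by -0.27 (SE 0.088, adjusted p = 0.145, and 0.0314 with slide as a block) and HLA-E probe 2 by -0.14 (SE 0.0687, adjusted p = 0.369). B2M, the light chain of every class I molecule, differed by -0.38 (SE 0.167, adjusted p = 0.306), and the difference was -0.60 on slide 1 and -0.17 on slide 2. The HGF results rest on the spread shared by all 16 arrays: fitted on the 8 arrays of 16HBE-ex14 alone, the 5 probes kept their differences but had adjusted p-values from 0.0513 to 0.128. Without 16HBE-ex14 replicate 4, TAP1 had a difference of -0.46 and an adjusted p-value of 0.0641, and HLA-F probe 1 had adjusted p-values of 0.0538 to 0.0866 without 16HBE-ex14 replicate 2 or 4 or 16HBE-ex14+HGF replicate 1, 2 or 4.

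HGF had no probe below an adjusted p of 0.05 in 16HBE-WT cells (background 0% of tested probes; 1681 of 34600 had an unadjusted p below 0.05, and the smallest adjusted p was 0.561). Among the 15 member probes 14 were negative, with a median of -0.21 against 0.03 over all probes. An unadjusted p below 0.05 was found for 7 of them, all lower, where 1.86% of tested probes were so. The HGF arrays lay below all untreated arrays for 5 probes (background 1.02%), those of PSMB8, PSMB9, HLA-F probe 1, HLA-B probe 3 and HLA-E probe 2.

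PSMB9 read 5.41, 5.20, 5.36 and 5.45 on the 16HBE-WT arrays and 5.02, 5.14, 5.02 and 5.01 with HGF, a difference of -0.31 (SE 0.0917, adjusted p = 0.885). PSMB8 read 3.21, 3.06, 3.14 and 3.13 without and 2.98, 2.95, 2.94 and 2.83 with HGF, a difference of -0.21 (SE 0.0699, adjusted p = 0.886). For both genes the conditions were separate on these arrays, by a narrow margin. TAP1 read 5.59, 5.39, 5.35 and 5.70 without and 5.15, 5.29, 5.38 and 5.17 with HGF, and the ranges overlapped. Its difference was -0.26 (SE 0.105, adjusted p = 0.971).

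For the 5 probes that passed in 16HBE-ex14 cells, the difference in 16HBE-WT cells had the same sign and was 50% (TAP1) to 65.9% (HLA-F probe 1) as large. As these probes were chosen by their 16HBE-ex14 result, the shares may be too small. The test of the difference between both HGF responses passed for no member (background 0%), and no member probe had an unadjusted p below 0.05 in it. The responses differed by -0.27 for PSMB9 (SE 0.13), -0.26 for TAP1 (SE 0.149) and -0.20 for PSMB8 (SE 0.0988), each with an adjusted p of 1. A larger response in one genotype was thus not shown.

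**Figure D2:**
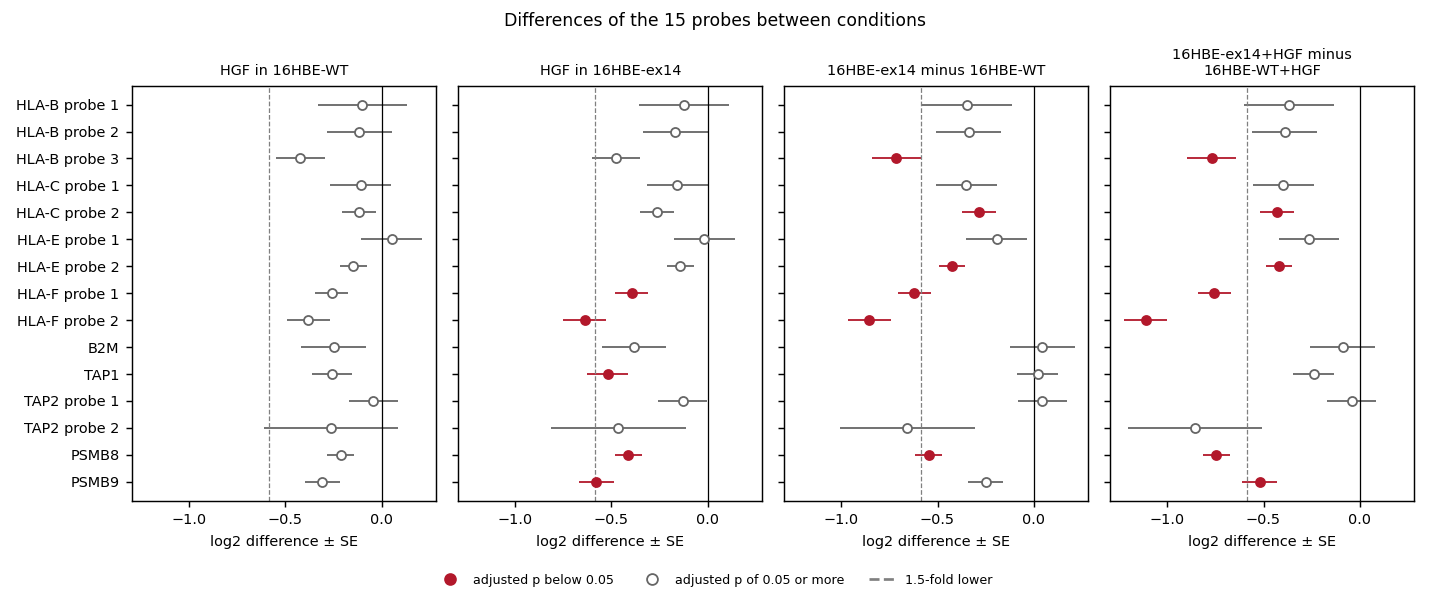
Log2 difference with its standard error from limma (n = 4 arrays per condition) for each of the 15 probes in 4 comparisons. Filled points have an adjusted p below 0.05, and the dashed line marks 1.5-fold lower; filled points appear with HGF in 16HBE-ex14 (5 probes) and in both genotype comparisons (6 and 7 probes), all left of 0.

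Between the genotypes without HGF the heavy chain genes and PSMB8 were lower in 16HBE-ex14 cells, HLA-F and PSMB8 being among the genes lower with HGF too. An adjusted p below 0.05 was found for 6 probes of 5 genes, HLA-B, HLA-C, HLA-E, HLA-F and PSMB8, all lower, with 8.78% of tested probes lower and 9.56% higher in this contrast. With the fold limit 3 probes passed (HLA-F probes 1 and 2 and HLA-B probe 3; background 4.93%). The 16HBE-ex14 arrays lay below all 16HBE-WT arrays for 6 probes (background 10.4%). With HGF on both sides 7 probes of 6 genes were lower, PSMB9 being added, where 9.99% of tested probes were lower and 10.5% higher. The fold limit left 4 probes of HLA-F, HLA-B and PSMB8 (background 5.43%), and 8 probes did not overlap (background 11.5%). Both genotype contrasts are of the same clone, and each HGF contrast shares its arrays with them.

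Some cell type markers moved with the genotype as well. The fibroblast marker LUM was well above background on all 4 arrays of 16HBE-WT and of 16HBE-WT+HGF and on none of either 16HBE-ex14 condition, at least 3.06-fold lower without HGF (adjusted p = 2.99e-06) and at least 2.23-fold lower with it (adjusted p = 3.83e-06). The summed level of the 3 tested fibroblast markers was 0.511 to 0.98 times the percentile in 16HBE-WT and 0.286 to 0.477 in 16HBE-ex14 cells, and with HGF 0.512 to 0.754 and 0.363 to 0.374. Of 3 leukocyte markers CD3E was lower without HGF (-0.98, adjusted p = 0.0237) and did not pass with it (-0.52, adjusted p = 0.222), with sums of 0.784 to 1.27 in 16HBE-WT and 0.644 to 1.04 in 16HBE-ex14 cells. Of 7 epithelium markers KRT19 was lower (-0.58, adjusted p = 0.000401, and -0.39 with HGF, adjusted p = 0.00589), while neither endothelium marker passed. The part of these markers in the member differences was not tested.

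HLA-F probe 1 read 7.73, 7.51, 7.63 and 7.71 on the 16HBE-WT arrays and 7.28, 7.41, 7.46 and 7.39 on the 16HBE-WT+HGF arrays, above every 16HBE-ex14 array (at most 7.19). Its difference between 16HBE-ex14 and 16HBE-WT cells was -0.62 (SE 0.0855, 1.54-fold lower, adjusted p = 0.000183) and, with HGF, -0.76 (1.69-fold lower, adjusted p = 3.13e-05). Probe 2 read 3.02, 2.58, 2.94 and 2.88 in 16HBE-WT and 2.35, 2.53, 2.43 and 2.58 in 16HBE-WT+HGF cells. Both wild-type conditions lay above every 16HBE-ex14 value of this probe. Its genotype differences were -0.85 (SE 0.111, adjusted p = 0.000113) and -1.11 with HGF (2.16-fold lower, adjusted p = 1.05e-05), the largest among the 15 probes.

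HLA-B probe 3 read 5.66, 5.27, 5.37 and 5.64 in 16HBE-WT and 4.88, 5.13, 5.17 and 5.08 in 16HBE-WT+HGF cells. All untreated 16HBE-ex14 arrays (at most 5.00) were below the untreated wild-type arrays. The differences were -0.71 (SE 0.126, 1.64-fold lower, adjusted p = 0.00118) and -0.77 with HGF (1.7-fold lower, adjusted p = 0.000575). HLA-B probes 1 and 2, which have a position, differed by less without HGF, -0.35 and -0.34 (adjusted p = 0.355 and 0.195). Without a slide term the HLA-B result thus rests on the probe without a position. With slide as a block probes 1 and 2 passed too, below 1.5-fold. Their adjusted p-values were then 0.00194 and 0.00232 and, with HGF, 0.00109 and 0.000747.

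HLA-E probe 2, which shares no such run, read 6.78, 6.76, 6.70 and 6.79 in 16HBE-WT and 6.34, 6.26, 6.38 and 6.35 in 16HBE-ex14 cells. HLA-E is the ligand of the inhibitory receptor NKG2A on natural killer cells. The spread between arrays was small (SD 0.0369 and 0.0499), and the log2 difference was -0.43 (SE 0.0687, 1.34-fold lower, adjusted p = 0.000622) and, with HGF, -0.42 (adjusted p = 0.000572). Scaling to the array median left -0.29 (adjusted p = 0.118) and -0.33 (adjusted p = 0.0733). The brighter HLA-E probe 1 did not pass between the genotypes. It differed by -0.19 (SE 0.157, adjusted p = 0.455) and, with HGF, by -0.26 (adjusted p = 0.278). With slide as a block its adjusted p-values were 0.0588 and 0.0123. Its HGF difference was -0.02 in 16HBE-ex14 and 0.05 in 16HBE-WT cells.

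HLA-C probe 2 read 8.91, 8.89, 8.75 and 8.72 in 16HBE-WT and 8.54, 8.54, 8.58 and 8.47 in 16HBE-ex14 cells. These arrays did not overlap. The difference of -0.28 (SE 0.088, adjusted p = 0.036) did not stay below 0.05 in 11 of 29 other settings, among them 6 that leave out 1 array (each 16HBE-ex14 array and 16HBE-WT replicates 1 and 2) and scaling to the E1A spike-in probes (-0.17, adjusted p = 0.325). With HGF it was -0.43 (1.35-fold lower, adjusted p = 0.00291), and scaling to the array median raised the adjusted p to 0.101.

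PSMB8 had a difference of -0.55 between 16HBE-ex14 and 16HBE-WT cells (SE 0.0699, 1.46-fold lower, adjusted p = 0.000101) and of -0.75 with HGF (1.68-fold lower, adjusted p = 6.27e-06), and no arrays overlapped. PSMB9 differed by -0.25 without HGF (SE 0.0917, adjusted p = 0.0739), with overlapping arrays, and was lower with HGF (-0.52, adjusted p = 0.00102; 0.0507 after scaling to the array median). TAP1, which starts next to PSMB9, differed by 0.02 without HGF (SE 0.105, adjusted p = 0.931) and by -0.24 with HGF (adjusted p = 0.131). TAP2 probe 1 differed by 0.04 and -0.04 (SE 0.126), and B2M, on chromosome 15, by 0.04 and -0.09 (SE 0.167).

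The order of the condition means was the same for PSMB8, all probes of HLA-F, HLA-B and HLA-C, HLA-E probe 2 and the dim TAP2 probe 2. 16HBE-WT was highest, 16HBE-WT+HGF next, then 16HBE-ex14, with 16HBE-ex14+HGF lowest. The share of all tested probes with this order of means was not counted. For PSMB8 these means were 3.14 (SD 0.0605), 2.92 (SD 0.0634), 2.59 (SD 0.054) and 2.18 (SD 0.0244), n = 4 each, and no neighbours in the order overlapped. In TAP1 the untreated conditions came first, 16HBE-ex14 at 5.53 (SD 0.13) and 16HBE-WT at 5.51 (SD 0.163), and did not differ beyond their spread. 16HBE-WT+HGF followed at 5.25 (SD 0.105) and 16HBE-ex14+HGF at 5.01 (SD 0.127). PSMB9 lay between these patterns, with 16HBE-ex14 at 5.10 (SD 0.17) and 16HBE-WT+HGF at 5.05 (SD 0.0594) overlapping.

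The overlapping HLA-B and HLA-C probes, HLA-E probe 1 and TAP2 probe 1 shifted with the slide in all 4 conditions. Shifts that were smaller on average, also of the same sign in all 4 conditions, were seen in other probes. HLA-B probe 3 (0.04 to 0.31), TAP1 (0.04 to 0.21) and HLA-F probe 1 (0.05 to 0.13) were higher on slide 2, and HLA-C probe 2 was lower (-0.19 to -0.01). HLA-B probe 1 read 8.40 and 8.45 on the slide 1 arrays of 16HBE-WT and 7.69 and 7.85 on slide 2. Over the 4 conditions its slide 2 level was 0.53 to 0.65 lower, -0.59 on average, and HLA-B probe 2 (-0.41), HLA-C probe 1 (-0.37) and HLA-E probe 1 (-0.37) moved the same way. HLA-B probe 3, in contrast, was 0.17 higher on slide 2, and HLA-E probe 2 moved by -0.01. TAP2 probe 1 was 0.23 higher on slide 2 (0.03 to 0.39 over the conditions) and the dim TAP2 probe 2 was 0.46 higher (-0.04 to 1.27).

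**Figure D3:**
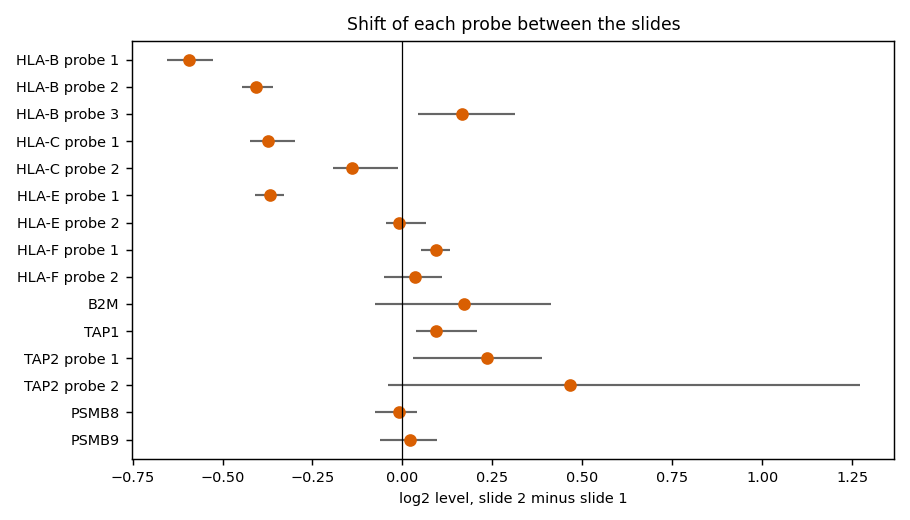
Log2 level on slide 2 minus slide 1 for each probe, as the mean over the 4 conditions (point) and the range over conditions (line). The 3 overlapping HLA-B and HLA-C probes and HLA-E probe 1 lie between -0.59 and -0.37, away from the other probes of the same genes.

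With this shift in the spread, HLA-B probe 1 differed between the genotypes by -0.35 (SE 0.233, adjusted p = 0.355) and, with HGF, by -0.37 (adjusted p = 0.311). Within slides the difference was -0.37 and -0.32 without HGF and -0.40 and -0.34 with it. With slide as a block the adjusted p-values were 0.00194 and 0.00109, and those of HLA-C probe 1 were 0.00177 and 0.000627, all below 1.5-fold. Without the block HLA-C probe 1 did not pass, at -0.35 (adjusted p = 0.147) and, with HGF, -0.40 (adjusted p = 0.0918). The block raised the number of member probes below 0.05 from 5 to 7 (HGF in 16HBE-ex14), from 6 to 9 and from 7 to 11 (genotypes without and with HGF). Calls among all 34600 tested probes, past both limits and in either direction, rose as well. They went from 687 to 820, from 3263 to 3535 and from 3739 to 4108 in the same contrasts. The share of all probes below 0.05 under the block was not counted. Slide was also scan, so that both cannot be told apart, and what makes these probes differ by slide was not tested.

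Over the 16 arrays, which share 2 slides and 4 conditions, the brightest probes of HLA-F and PSMB8 had a Pearson correlation of 0.979, those of PSMB8 and PSMB9 of 0.889, and those of PSMB9 and TAP1 of 0.856. After subtraction of the condition means these were 0.348, 0.47 and 0.663, and 16 of the 36 pairs of members were negative, among them HLA-B with TAP2 (-0.81), HLA-E with TAP2 (-0.802), HLA-E with HLA-F (-0.652) and HLA-B with HLA-F (-0.573). The brightest probes of HLA-B, HLA-C and HLA-E were lower on slide 2 and those of TAP2 and HLA-F higher. HLA-B and HLA-C, whose brightest probes overlap, had 0.961 and 0.984. The 5 other genes whose levels most resembled the mean standardised profile of the members over the 16 arrays were ALPP (r = 0.957), TDRD7 (0.953), XLOC_l2_012953 (0.95), JUND (0.948) and BATF (0.948).

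Of 8 other tested proteasome genes PSMB10 and PSME1 were lower with HGF in 16HBE-ex14 cells and none was higher, with a median of -0.08 against 0.06 over all genes. Counted at their brightest probe, 1.58% of all tested genes were lower and 1.46% higher in this contrast, 8.4% and 9.85% between the genotypes without HGF, and 9.77% and 10.8% with it; the lists that follow are to be read against these shares. PSMB10, the remaining inducible catalytic subunit, was lower (log2 difference -0.59, SE 0.102, 1.51-fold, adjusted p = 0.00614), from 6.28 (SD 0.106) to 5.69 (SD 0.168). PSME1, a subunit of the interferon-inducible activator PA28, was lower (-0.52, SE 0.0883, adjusted p = 0.00548), and its partner PSME2 differed by -0.17 (adjusted p = 0.268). The constitutive catalytic subunits that the inducible ones replace did not pass: PSMB5 differed by 0.00 (SE 0.0946), PSMB6 by 0.09 (SE 0.115) and PSMB7 by 0.18 (SE 0.101). PSMB10 did not pass between the genotypes (0.08, SE 0.102, adjusted p = 0.662), and in that contrast PSME4, an ATP-independent activator, was the list's single lower gene (-0.51, adjusted p = 0.0134). With HGF on both sides PSME4 (-0.63, adjusted p = 0.00321) and PSME1 (-0.39, adjusted p = 0.00573) were lower.

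**Figure D4:**
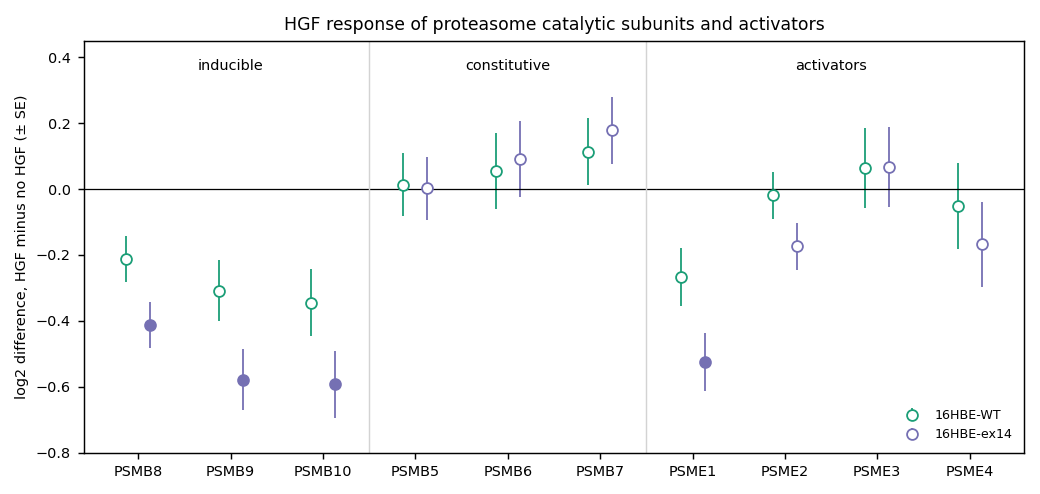
Log2 difference between HGF and no HGF (SE from limma, n = 4 arrays per condition) for inducible and constitutive catalytic subunits and activators of the proteasome in both genotypes. Filled points have an adjusted p below 0.05: PSMB8, PSMB9, PSMB10 and PSME1 in 16HBE-ex14 cells, while PSMB5, PSMB6 and PSMB7 stay between 0.00 and 0.18.

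None of the 7 genes of peptide loading and trimming passed with HGF in 16HBE-ex14 cells (median -0.10). Tapasin (TAPBP), which bridges TAP to the heavy chain, differed by -0.43 (SE 0.123, adjusted p = 0.0819), and TAPBPL, its relative, by -0.60 (adjusted p = 0.0591). Between the genotypes the peptide-trimming enzyme ERAP1 was higher in 16HBE-ex14 cells, by 0.27 (adjusted p = 0.0343) and with HGF by 0.32 (adjusted p = 0.0106), and with HGF the chaperone CANX was also higher (0.46, adjusted p = 0.0434).

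Of 11 regulators of class I transcription 1 was lower with HGF in 16HBE-ex14 cells (background 1.58%), the interferon regulatory factor IRF1, from 2.04 (SD 0.205) to 1.40 (SD 0.147), a difference of -0.63 (SE 0.155, 1.55-fold, adjusted p = 0.041). NLRC5, the class I co-activator, differed by -0.12 (SE 0.17). Between the genotypes with HGF, IRF1 (-0.57, adjusted p = 0.0164), RFX5 (-0.40, adjusted p = 0.0349) and RFXANK (-0.28, adjusted p = 0.0157) were lower, against a background of 9.77%, and RFXANK was the 1 of 11 lower without HGF (-0.23, adjusted p = 0.0447; background 8.4%); RFX5 and RFXANK are subunits of the factor that binds the X box of these promoters.

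Among 10 interferon receptor and signalling genes none passed with HGF in 16HBE-ex14 cells (median -0.12). In 16HBE-ex14 against 16HBE-WT cells 3 of 10 were lower (background 8.4%): the interferon gamma receptor chain IFNGR1, on the long arm of chromosome 6, with a difference of -0.81 (SE 0.131, 1.75-fold, adjusted p = 0.000646), IFNAR1 with -0.63 (adjusted p = 0.000625) and the kinase JAK1 with -0.33 (adjusted p = 0.0482). With HGF the difference of IFNGR1 was -1.04 (adjusted p = 7.73e-05), IFNAR2 joined them (-0.29, adjusted p = 0.0375), and the inhibitor SOCS1 was higher (0.60, adjusted p = 0.019).

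Of 13 tested interferon-stimulated genes outside antigen presentation, 2 were lower with HGF in 16HBE-ex14 cells, GBP1, a guanylate-binding protein (-1.47, SE 0.193, 2.77-fold, adjusted p = 0.00157), and UBE2L6, the ISG15-conjugating enzyme (-0.35, adjusted p = 0.0252), against a background of 1.58% lower. Of the 13 genes 12 were negative (median -0.28), as were 39% of all tested genes. IFIT1, ISG15 and IFI27 differed by -0.11, -0.05 and 0.01. Between the genotypes GBP1 (-1.04), IFI27 (-0.90), IFI6 (-0.59) and ISG15 (-0.38) were lower and IFIT2 (0.64) was higher, 4 and 1 of 13 against 8.4% and 9.85% of all genes, with a median of -0.04.

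The 178 other tested genes of the MHC region (chromosome 6, hg19) gave the positional context. With HGF in 16HBE-ex14 cells 4 were lower and 2 higher (background 1.58% and 1.46%; median 0.03). Between the genotypes 23 were lower and 13 higher without HGF (background 8.4% and 9.85%; median -0.12 against -0.02 over all genes), and 34 and 13 with HGF (background 9.77% and 10.8%; median -0.10 against 0.01). MET itself differed between the genotypes by 0.13 (SE 0.108, adjusted p = 0.456), at a probe that does not read exon 14 and so does not check the edit.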

How the data were processed

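RNA of 16 cultures, grown as 4 weekly replicates per condition, was hybridised to one-colour Agilent arrays. The deposited files hold spot intensity from Feature Extraction 10.7.3.1, background-subtracted and detrended per the file headers but not scaled between arrays. The series-wide table repeats these values. Which array belongs to which week is not given in the sources used here. Here log2 intensity of the deposited signal was taken, outlier spots were dropped, each array's 75th percentile was set to 0 and spots of a probe were averaged. A probe had to be well above background on 4 or more of the 16 arrays, and all such probes were fitted with limma 3.58.1 (R 4.3.3), 1 mean per condition, 5 contrasts, Benjamini-Hochberg within each. The fit was tested on simulated data. A gene of a list, and of the correlations, is represented by its brightest tested probe; within each list genes were named by the size of their difference or as counterparts of a member. Members and lists were chosen with earlier results of these data known. Protein sequences were not used here, and 1 regulator and 1 probe sequence are not reported here. Array probes measure relative levels, so the scaling alternatives bear on every difference.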

Additional observations from a re-analysis of the deposited data

Results flagged for a closer look

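In 1 of 60 groups of 4 arrays examined (15 probes, 4 conditions), 1 array stood apart from the other 3. PSMB9 on 16HBE-WT+HGF replicate 2 read 5.14 (5.135 before rounding), with the next array at 5.02, a gap of 0.947 of the group's range. Chance alone marks about 1 group in 20.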

How the results depend on the processing

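The differences of the 18 member probes and contrasts with an adjusted p below 0.05 were recomputed under 29 settings each. None of the 522 values changed sign and 495 stayed below 0.05. The 27 others were the 5 HGF values fitted on 16HBE-ex14 arrays alone, HLA-C probe 2 (12 settings), HLA-F probe 1 with HGF (6 more, 5 of them without 1 array), TAP1 without 16HBE-ex14 replicate 4, HLA-E probe 2 (2) and PSMB9 (1) after median scaling. Counted as genes at their brightest probe past both limits, members numbered 0 for HGF in 16HBE-ex14, 0 in 16HBE-WT, 1 without HGF between genotypes, 2 with HGF and 0 for the difference of responses. Of all 26368 tested genes, 255, 0, 1259, 1394 and 0 were lower past both limits in the same order of contrasts. For HGF in 16HBE-ex14 the member count became 1 with quantile normalization, array weights or any probe of a gene, 2 when scaled to the array median or the E1A spike-in probes, and 4 without the fold limit. It ranged from 0 to 1 when single arrays were left out, PSMB9 being added without 16HBE-ex14 replicate 1 or 3 or 16HBE-ex14+HGF replicate 4. For the genotypes without HGF it became 0 with normexp correction and both those scalings, and 2 with quantile normalization, with any probe of a gene and without the fold limit. Combined settings, chosen after seeing the data, counted any probe without the fold limit and gave 4, 5 and 6 genes (HGF in 16HBE-ex14, genotypes without and with HGF). They gave 4, 3 and 3 under median scaling, 4, 4 and 6 under E1A scaling, 5, 5 and 7 with normexp and 6, 5 and 6 with slide as a block. HLA-F, TAP1, PSMB8 and PSMB9 were among the HGF genes in each of these. Except for dropping the fold limit alone, the share of all genes under each changed setting was not counted. Counting any probe also gives genes with more than 1 probe more chances to pass.

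Median scaling moved the median of all probes from 0.06 to -0.11 (HGF in 16HBE-ex14) and from -0.02 to 0.12 (genotypes without HGF), and the share of higher calls from 52.8% to 24.5% and from 47.7% to 71.5%. With E1A scaling these shares were 40.5% and 67.8%, and normexp correction moved the genotype medians to -0.13 and -0.14 and the share of higher calls without HGF to 59.1%. Array row as a replicate block left the counts at 0, 0, 1, 2 and 0. Arrays of the same row correlated by 0.0494 to 0.344 in their deviations, no more than other arrays of the same slide (0.0586 to 0.411). Slide was not removed from these deviations, so they cannot decide whether the replicate numbers pair the cultures. Dim probes such as TAP2 probe 2, above background on 11 of 16 arrays, limit what can be resolved.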

Other observations

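None of 10 tested class I-like genes passed with HGF in 16HBE-ex14 cells. Between the genotypes 4 were lower in 16HBE-ex14 cells (background 8.4%), the heavy chain gene HLA-G (-0.37, adjusted p = 0.00166), the pseudogene HLA-J (-0.46, adjusted p = 0.000452) and the stress ligands MICB (-0.38, adjusted p = 0.0292) and ULBP2 (-0.83, adjusted p = 0.00948), while ULBP1, a ligand of the same receptor NKG2D, was higher (0.83, adjusted p = 0.000163). With HGF on both sides 3 were lower and 2 higher (background 9.77% and 10.8%), ULBP1 again among the latter (0.65, adjusted p = 0.000911). Whether the HLA-G and HLA-J probes also read RNA of other heavy chain genes was not tested.

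Of 9 tested class II genes none passed with HGF in 16HBE-ex14 cells, and HLA-DRA was not well above background on 4 arrays. CD74, the class II invariant chain, was above background on all 4 arrays of 16HBE-ex14 and on none of 16HBE-WT, at least 6.16-fold higher than the lowest level read as well above background there (adjusted p = 6.1e-05), and with HGF at least 4.23-fold higher. The peptide exchange subunits HLA-DMA (-0.56, adjusted p = 0.0336) and HLA-DMB (-0.67, adjusted p = 0.00328) were lower in 16HBE-ex14+HGF than in 16HBE-WT+HGF cells.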
